A study of Homo sapiens with 18 samples.

Results

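After icaritin, the levels of 61 genes differed from DMSO in one direction in the lymphoma line SNK-10 and in the other direction in the lines SNT-8 and SNT-16. For each gene the CPM value of a library, a count scaled to a common library size, was its expected count over the sum of that library, times 1000000. The response of a line was the log2 of the mean icaritin CPM plus 1 over the mean DMSO CPM plus 1. Genes were kept where the mean over 18 libraries was at least 10 CPM and the response was at least 0.2 in SNK-10 and at most -0.2 in both SNT lines, or the reverse. Of 21662 gene IDs in the data, 9329 reached 10 CPM, and 61 of these, 0.654%, met the rule. After icaritin 18 of the 61 were higher in SNK-10 and lower in both SNT lines, and 43 were lower in SNK-10 and higher in both SNT lines. Opposite signs of any size were seen in 1194 genes, 12.8% of those at 10 CPM, 369 of them higher in SNK-10 and 825 lower. Because the 61 genes were chosen by these icaritin responses, the responses are given as a description with no test.

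The 6 groups were SNK-10, SNT-8 and SNT-16 cells, each given icaritin for 12 h and each set against cells of its line given DMSO, the solvent, for 12 h. Every group held 3 libraries of total RNA, and all lines are labelled wild type and NK/T cell lymphoma. Icaritin is a flavonoid with a prenyl group, obtained from Epimedium plants. Its dose is not given in the sources used here, and nothing says that the 3 libraries of a group came from separate cultures, so every spread below may be technical. The series addresses how icaritin acts on these lymphoma cells, with PLK1 and the DNA damage response named in its title.

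The libraries held between 9526431 and 10100453 expected counts. Summed over 8 cytotoxic lymphocyte markers, the levels were 2114 to 2465 CPM in SNK-10 and 3117 to 3637 CPM in the SNT lines. The sum of 8 NK lineage markers was 218.6 to 235.1 CPM in SNK-10, 125.4 to 149.6 CPM in SNT-8 and 96.5 to 107.0 CPM in SNT-16. That of 7 T lineage markers was 294.2 to 300.6 CPM after icaritin and 313.9 to 325.3 CPM after DMSO in SNK-10, 431.9 to 447.7 against 537.0 to 554.7 CPM in SNT-8, and 442.6 to 464.6 against 536.5 to 555.7 CPM in SNT-16, lower after icaritin in every line. FCER1G, an adaptor of NK cell receptors, lay at 126.5 to 140.4 CPM in SNK-10 libraries and below 1 CPM in those of both SNT lines. It made up most of the NK lineage sum in SNK-10, and without it that sum lay below the sum of SNT-8. CD3D, a subunit of the T cell receptor complex, lay at 8.59 to 14.8 CPM in SNK-10 and 69.9 to 114.7 CPM in the SNT lines. The SNT lines were close to each other: across genes, the log2 CPM of their DMSO libraries correlated with Pearson's r of 0.988 to 0.989, against 0.879 to 0.884 between SNK-10 and either SNT line. In one library, SNT-8 icaritin replicate 2, the counts differed most from its fellow replicates (chi-square per gene 5.96 and 8.18, against 1.37 to 4.13 for all other replicate pairs). Without that library the rule kept 62 genes, 17 higher and 45 lower in SNK-10, of which 55 are among the 61. The genes that then drop out are ARHGEF6, BCL3, PABPC4-AS1, PYHIN1, TEX19 and XAF1. Without SNK-10 icaritin replicate 3, which came next (3.40 and 4.13), the rule kept 56 genes, 23 higher and 33 lower in SNK-10, and 13 of the 61 dropped out: AKAP17A, CCDC141, CHST2, GBA1LP, LDB1, MSTO2P, PCED1A, PCNA-AS1, PFKM, PLCB3, RETSAT, SHROOM1 and TBC1D3L.

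The split between the classes rests on how libraries are scaled. The mitochondrial ribosomal RNA RNR2 took 4.59% to 5.12% of the counts in SNK-10 icaritin libraries, against 1.5% to 1.55% in SNK-10 DMSO libraries. It took 2.12% to 2.78% against 1.19% to 1.33% in SNT-8, and 1.65% to 1.77% against 0.83% to 0.89% in SNT-16. With the trimmed mean of M values (TMM) scaling of edgeR, the rule kept 57 genes, 31 higher in SNK-10 (54.4%) and 26 lower, against 18 (29.5%) and 43 under plain CPM. With RNR1 and RNR2 left out of the library sum it kept 53 genes, 23 higher in SNK-10 (43.4%) and 30 lower. All 18 genes of the class higher in SNK-10 met the rule under TMM too, and so did 26 of the 43 lower genes. The other 17 kept the sign of their response in each line under TMM but missed 0.2 in at least one of them. They are AKAP17A, ARHGEF6, ATF5, GBA1LP, GSK3B, LDB1, MSTO2P, PABPC4-AS1, PCED1A, PCNA-AS1, PFKM, PLCB3, PYHIN1, RETSAT, SHROOM1, TENM3 and TTLL3. TMM added 13 genes, each in the class higher in SNK-10: APOL1, CD274, COPG2, CSF1, DUSP4, EVA1A-AS, FAM120C, HAVCR2, IKBKE, IRF1, LRRC8D, PANK4 and PARP12. The median response of all genes at 10 CPM was -0.03 in SNK-10, 0.02 in SNT-8 and 0.025 in SNT-16 under plain CPM, and 0.002, -0.024 and 0.001 under TMM.

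Several of the genes belong to well known programmes. Interferons signal through JAK kinases to STAT factors, which enter the nucleus and switch on genes of defence against viruses, antigen presentation and cell death, and lymphocytes use the same route for many cytokines. Cells make cholesterol from acetyl-CoA through the mevalonate pathway, whose genes are switched on by the factor SREBP2 when sterols in the endoplasmic reticulum run low. Matrix proteins, integrin scaffolds and exchange factors for small GTPases govern how lymphocytes attach and migrate.

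**Figure D1:**
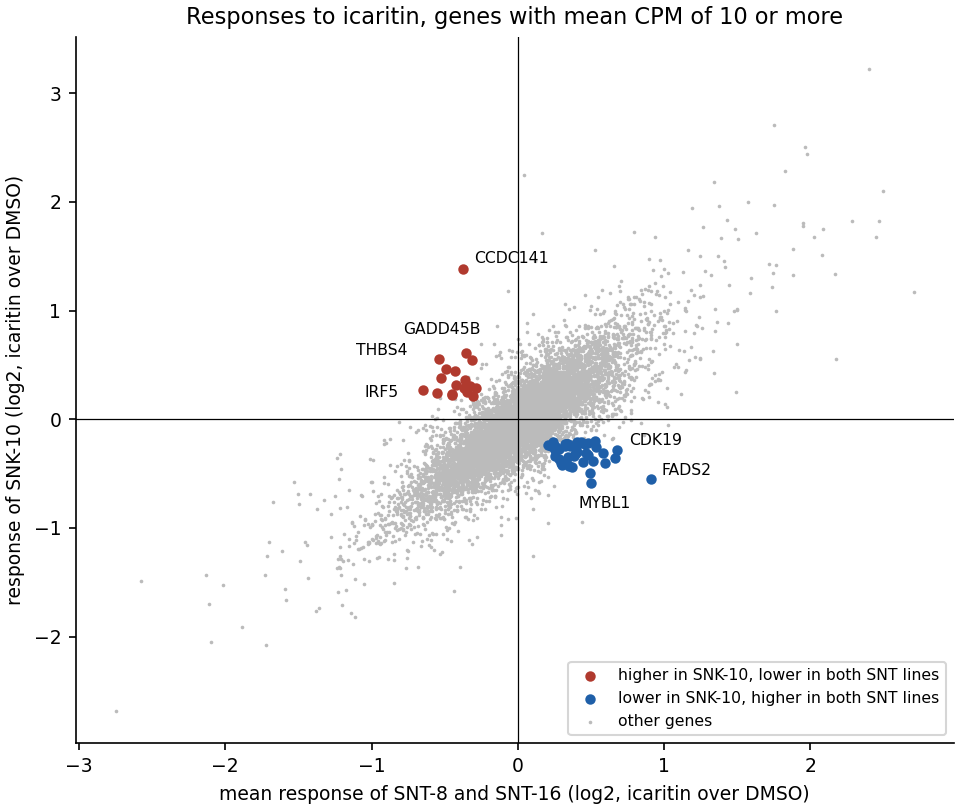
Response of SNK-10 (vertical axis, log2 of icaritin over DMSO) against the mean response of SNT-8 and SNT-16 (horizontal axis, same unit), 1 point for each of the 9329 genes with a mean of at least 10 CPM. The 18 genes higher in SNK-10 (red) and the 43 lower genes (blue) lie in the corners off the diagonal because the rule selects them there. Other genes are grey.

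The sterol and fatty acid genes split between the classes, HMGCS1 on one side and STARD4, CYP51A1 and FADS2 on the other, and their promoters are shown for that reason. Each stretch runs from 250 bases before to 50 bases after the start of the gene, 5′ to 3′ on the strand of the gene, from RefSeq in build GRCh38.p14. Capitals mark a CCAAT box, written CCAAT or, on the other strand, ATTGG. The promoters lie at chr5:43313363-43313662 on the minus strand (HMGCS1), chr5:111512486-111512785 on the minus strand (STARD4), chr7:92134428-92134727 on the minus strand (CYP51A1) and chr11:61815953-61816252 on the plus strand (FADS2).
HMGCS1: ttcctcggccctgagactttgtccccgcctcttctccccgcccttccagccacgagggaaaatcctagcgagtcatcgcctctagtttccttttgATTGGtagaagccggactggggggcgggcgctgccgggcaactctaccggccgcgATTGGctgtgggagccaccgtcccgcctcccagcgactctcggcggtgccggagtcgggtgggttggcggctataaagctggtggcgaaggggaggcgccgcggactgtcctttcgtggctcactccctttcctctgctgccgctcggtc
STARD4: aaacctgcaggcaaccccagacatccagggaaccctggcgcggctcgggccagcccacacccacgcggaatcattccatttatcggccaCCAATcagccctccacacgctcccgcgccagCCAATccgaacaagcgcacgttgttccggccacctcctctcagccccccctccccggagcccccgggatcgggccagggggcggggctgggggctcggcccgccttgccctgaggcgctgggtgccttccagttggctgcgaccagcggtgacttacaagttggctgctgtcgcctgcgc
CYP51A1: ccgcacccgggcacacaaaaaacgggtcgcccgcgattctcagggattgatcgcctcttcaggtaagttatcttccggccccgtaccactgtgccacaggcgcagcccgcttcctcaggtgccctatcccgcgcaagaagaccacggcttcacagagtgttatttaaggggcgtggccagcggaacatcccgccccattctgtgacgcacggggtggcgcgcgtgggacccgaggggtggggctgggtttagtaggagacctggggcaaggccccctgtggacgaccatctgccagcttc
FADS2: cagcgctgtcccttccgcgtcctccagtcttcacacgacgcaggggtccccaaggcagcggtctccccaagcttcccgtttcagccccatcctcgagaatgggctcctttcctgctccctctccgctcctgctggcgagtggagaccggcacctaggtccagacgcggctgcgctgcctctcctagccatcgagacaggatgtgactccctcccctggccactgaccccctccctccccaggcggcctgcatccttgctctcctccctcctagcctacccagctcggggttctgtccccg

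HMGCS1 and STARD4, which moved oppositely in every line, each hold 2 CCAAT boxes in this window, and CYP51A1 and FADS2 hold none. The sterol response element was searched as TCACNCCAC, which 1.15% of all promoters and 1.06% of those of expressed genes hold, and matched in none of the 4, nor in any other of the 61 genes with a promoter. Promoters were found for 45 of the 61 genes, 12 of the class higher in SNK-10 and 33 of the class lower. Only 1 window was searched for each gene, so any other start of a gene, FADS2 among them, was not covered. Each motif was searched on both strands, and matches could overlap other motifs. The GAS element bound by STAT dimers, searched as TTCNNNGAA, matched 0 of 12 and 1 of 33 (C21orf58), against 7.88% of all 27305 promoters of the same length and 6.44% of the 7661 whose genes were at 10 CPM (expressed genes). The core of the interferon-stimulated response element, GAAA repeated after any 2 bases, matched 0 of 12 and 2 of 33 (ATF5 and ARHGEF6), against 3.65% of all promoters and 3.15% of those of expressed genes. The AP-1 site TGANTCA matched 1 of 12 (DST) and 2 of 33 (STAT4 and ATF5), against 7.76% of all and 4.02% of those of expressed genes. The CRE site TGACGTCA matched none, against 1.98% of all and 3.64% of those of expressed genes. The CCAAT box matched 3 of 12 and 10 of 33, against 35.7% of all promoters and 37.9% of those of expressed genes. A match describes letters only, and the absence of one says nothing of the factor outside the window.

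Among the genes of interferon and cytokine signalling described here, XAF1, IRF5, ARID5A, BCL3 and SOCS2 were higher in SNK-10 after icaritin and lower in both SNT lines, and STAT4 and PYHIN1 were the reverse. XAF1 (Gene ID 54739), an interferon-inducible protein that promotes apoptosis by binding the inhibitor XIAP, had 122, 127 and 119 CPM in SNK-10 after icaritin, against 94.3, 98.6 and 102 CPM after DMSO. Its values were 76.1, 79.7 and 87.1 CPM against 92.9, 93.2 and 93.6 CPM in SNT-8, and 105, 112 and 102 CPM against 170.3, 164 and 164 CPM in SNT-16. The arms stood apart in each line, but the SNT-8 response of -0.20 was barely past the threshold and was -0.19 without SNT-8 icaritin replicate 2, against -0.64 in SNT-16. IRF5 (Gene ID 3663), a factor that acts downstream of Toll-like receptors, was most abundant in SNK-10 of the 3 lines, with 227, 227 and 207 CPM after icaritin against 186, 173 and 190.0 CPM after DMSO. SNT-8 libraries held 49.8, 36.7 and 56.8 CPM against 78.7, 79.6 and 74.4 CPM, and those of SNT-16 held 46.3, 51.3 and 48.4 CPM against 70.9, 78.5 and 74.3 CPM. With responses of 0.27, -0.69 and -0.61, SNK-10 and the SNT lines stood further apart for IRF5 after icaritin than after DMSO, while for XAF1 the order of SNK-10 and the mean of the SNT lines turned round.

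ARID5A (Gene ID 10865), an RNA-binding protein that in mouse stabilises Il6 and Stat3 mRNA, had 178, 187 and 181 CPM in SNK-10 after icaritin, against 149, 143 and 154 CPM after DMSO. Its responses were 0.29 in SNK-10, -0.32 in SNT-8 and -0.42 in SNT-16, again with no overlap of the arms in any line. BCL3, an atypical IkB protein that acts with NF-kB dimers in the nucleus, responded by 0.36, -0.20 and -0.53. Its SNT-8 arms overlapped, at 92.8, 85.5 and 109.8 CPM after icaritin and 118, 108 and 106 CPM after DMSO, and the SNT-8 response was -0.12 without SNT-8 icaritin replicate 2. SOCS2, a feedback inhibitor of cytokine receptors that STAT factors induce, responded by 0.22, -0.40 and -0.21 with no overlap. Of 18 selections that each left out 1 library, SOCS2 stayed in 13.

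In the reverse class, STAT4 (Gene ID 6775), the factor that IL-12 activates, had 37, 38 and 43.6 CPM in SNK-10 after icaritin, against 55.4, 51.8 and 44 CPM after DMSO. It had 13.4, 11.8 and 12.5 CPM against 9.65, 8.4 and 9.5 CPM in SNT-8, and 15.7, 12.6 and 16.2 CPM against 11.6, 11.8 and 13 CPM in SNT-16. STAT4 was thus lower in SNK-10 and higher in both SNT lines, with responses of -0.34, 0.41 and 0.27, although in SNT-16 one icaritin library lay within the DMSO range and in SNK-10 the arms were separated by under 1 CPM. PYHIN1, an interferon-inducible nuclear protein related to the DNA sensors IFI16 and AIM2, responded by -0.34, 0.21 and 0.29. Its SNT-8 response rests on replicate 2 of the icaritin arm and was 0.06 without it.

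The other genes of the interferon list were mixed. Of 43 tested interferon-stimulated genes outside the 61, 16 were called higher and 7 lower in SNK-10 and 20 missed the threshold. SNT-8 had 7 higher, 19 lower and 17 that missed it, and SNT-16 had 9 higher, 23 lower and 11 that missed it (edgeR's quasi-likelihood test, Benjamini-Hochberg adjusted p below 0.05). Their median log2 fold change was 0.002 in SNK-10, -0.229 in SNT-8 and -0.325 in SNT-16, against 0.010, 0.021 and 0.017 for all 14396 genes tested, of which 24.4% rose and 24.0% fell in SNK-10, 24.0% rose and 25.0% fell in SNT-8, and 21.2% rose and 20.8% fell in SNT-16. IRF1, a transcription factor that interferon induces, and GBP1, a guanylate-binding protein, passed the test in opposite directions, GBP1 with log2 changes of 0.19, -0.23 and -0.30. Of the 9329 genes at 10 CPM, 0.557% passed as higher in SNK-10 and lower in both SNT lines, and the list was not tested against that share. IRF1 rose by 0.23 ± 0.05 in SNK-10 (log2, SE, edgeR) and fell by 0.32 ± 0.05 in SNT-8 and by 0.23 ± 0.05 in SNT-16. As IRF1 and GBP1 were picked from the list for these opposite changes, no p is given for them. GBP4 and GBP5, of the same family as GBP1, rose in every line instead, by 0.68 and 0.53 in SNK-10, 0.18 and 0.22 in SNT-8 and 0.14 and 0.13 in SNT-16, and IFI44L and BST2 fell in every line.

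Of the JAK-STAT and cytokine receptor genes outside the 61, 36 were tested: 18 rose and 4 fell in SNK-10, 16 rose and 11 fell in SNT-8, and 11 rose and 8 fell in SNT-16. None passed in opposite directions in SNK-10 and both SNT lines, where 0.557% of the 9329 genes did so as higher in SNK-10 and 0.332% as lower. Nothing is read from that. Of 41 tested NF-kB and TNF superfamily genes other than BCL3, 19 rose and 8 fell in SNK-10, 15 rose and 12 fell in SNT-8, and 10 rose and 11 fell in SNT-16. Of all genes tested, 24.4% rose and 24.0% fell in SNK-10, 24.0% and 25.0% in SNT-8, and 21.2% and 20.8% in SNT-16. No list here or below was tested against these shares.

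**Figure D2:**
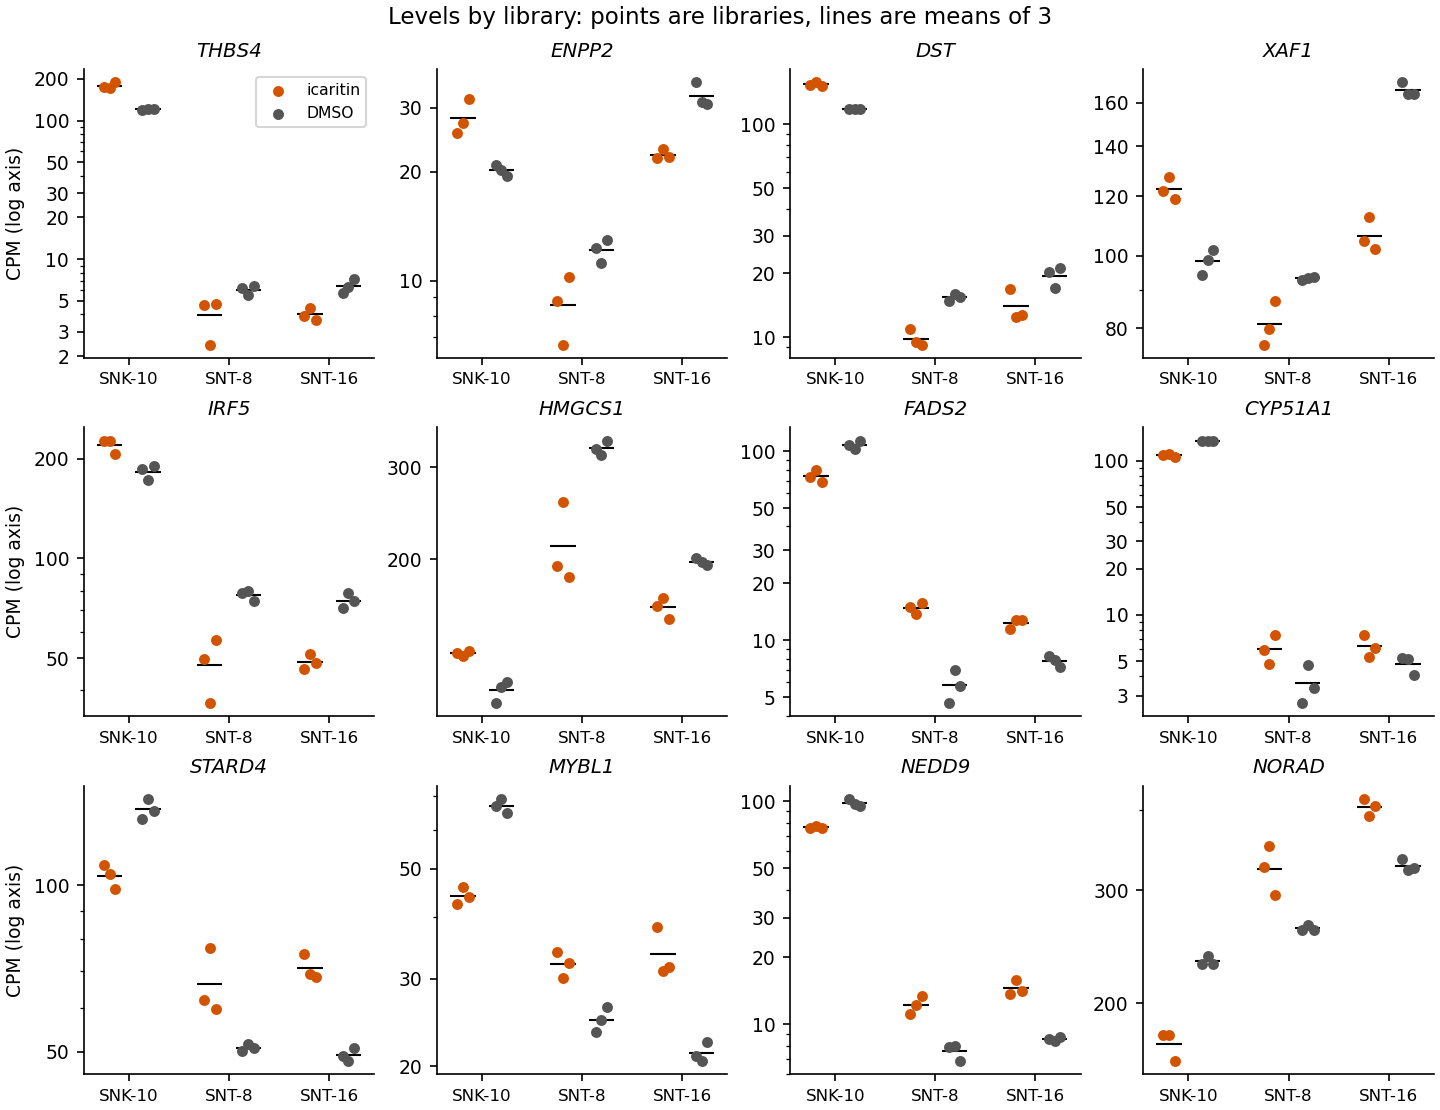
CPM by library (vertical log axis) of 12 of the genes in SNK-10, SNT-8 and SNT-16 given icaritin (orange, left of each pair) or DMSO (grey, right). Points are libraries and lines are means of 3: in THBS4, ENPP2, DST, XAF1, IRF5 and HMGCS1 the icaritin libraries sit above DMSO in SNK-10 and below it in both SNT lines, and in the other 6 genes the reverse.

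In lipid metabolism and lipid signalling, 4 genes were higher in SNK-10 and lower in both SNT lines (HMGCS1, ENPP2, P2RY8 and ATP9A), and 7 were the reverse (FADS2, STARD4, CYP51A1, SPTLC2, PCYOX1, PLCB3 and RETSAT). HMGCS1 (Gene ID 3157), the synthase that commits acetyl-CoA to the mevalonate pathway, had 132, 131 and 133 CPM in SNK-10 after icaritin, against 106, 114 and 116 CPM after DMSO. In SNT-8 it had 194, 257 and 185 CPM against 325, 316 and 337 CPM, and in SNT-16 163, 169 and 154 CPM against 201, 198 and 195 CPM. The arms did not overlap, but within SNT-8 replicate 2 of the icaritin arm stood well above its fellows, and the response there was -0.62 with it and -0.78 without it.

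FADS2 (Gene ID 9415), the desaturase that begins the making of long polyunsaturated fatty acids, had 72.8, 79.2 and 68.5 CPM in SNK-10 after icaritin, against 107, 103 and 114 CPM after DMSO. It had 15.1, 13.8 and 15.7 CPM against 4.68, 7.0 and 5.74 CPM in SNT-8, and 11.5, 12.9 and 12.9 CPM against 8.31, 7.86 and 7.26 CPM in SNT-16. A gene that is abundant in SNK-10 was thus lower there after icaritin and higher in the SNT lines, where it is scarce, with responses of -0.55, 1.22 and 0.61. FADS2 and THBS4 were the only genes of the 61 with a response of at least 0.5 in every line. FADS1, the neighbouring desaturase, whose annotation overlaps that of FADS2, responded by -0.26 in SNK-10, 0.05 in SNT-8 and 0.05 in SNT-16. Whether counts were assigned by strand is not given, so reads of overlapping genes may be shared.

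CYP51A1 (Gene ID 1595), the lanosterol demethylase of cholesterol synthesis, was at 109, 111 and 106 CPM in SNK-10 after icaritin, against 135, 134 and 135 CPM after DMSO. In the SNT lines it was scarce, at 5.92, 4.78 and 7.38 CPM against 2.69, 4.72 and 3.37 CPM in SNT-8 and 7.36, 5.35 and 6.07 CPM against 5.26, 5.16 and 4.06 CPM in SNT-16, so its SNT responses of 0.61 and 0.32 rest on few counts. STARD4 (Gene ID 134429), which carries cholesterol between membranes, had 109, 105 and 98.3 CPM in SNK-10 after icaritin, against 132, 143 and 136 CPM after DMSO. SNT-8 libraries held 62, 77.2 and 59.7 CPM against 50.2, 51.5 and 50.7 CPM, and those of SNT-16 held 75, 69 and 68.2 CPM against 49.2, 48.1 and 50.8 CPM. Its arms were apart in each line, with responses of -0.39, 0.38 and 0.51.

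The rest of the sterol and fatty acid list mostly fell in every line. Of 30 tested genes of that list other than these 4, 19 fell and 4 rose in SNK-10, 22 fell and none rose in SNT-8, and 22 fell and 2 rose in SNT-16 (edgeR's quasi-likelihood test, adjusted p below 0.05). Their median log2 fold change was -0.371 in SNK-10, -0.646 in SNT-8 and -0.402 in SNT-16. FASN, the fatty acid synthase, fell by 1.28 ± 0.06, 1.35 ± 0.06 and 1.11 ± 0.06 (log2, SE) in SNK-10, SNT-8 and SNT-16. None of the 30 passed the test in opposite directions in SNK-10 and both SNT lines. Of the 9329 genes at 10 CPM, 0.557% passed as higher in SNK-10 and 0.332% as lower, so nothing is read from that. In SNK-10, HMGCS1 was higher beside a list that mostly fell. In the SNT lines FADS2, STARD4 and CYP51A1 had responses above 0 beside a list that mostly fell. In SNT-16 the change of CYP51A1, at 0.36 ± 0.17 (log2, SE, edgeR), did not pass the threshold. As this response helped to choose the gene, it is a description and no p is given. INSIG1, which holds the SREBP factors in the endoplasmic reticulum, had a log2 change of 0.03 ± 0.06 in SNK-10 that did not pass the test (adjusted p = 0.72, edgeR), and fell by 0.71 ± 0.05 in SNT-8 and by 0.40 ± 0.05 in SNT-16.

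ENPP2 (Gene ID 5168), also called autotaxin, a secreted enzyme that makes lysophosphatidic acid, had 25.6, 27.3 and 31.7 CPM in SNK-10 after icaritin, against 20.8, 20.2 and 19.5 CPM after DMSO. It had 8.76, 6.65 and 10.3 CPM against 12.3, 11.2 and 13 CPM in SNT-8, and 21.8, 23 and 22 CPM against 35.3, 31.3 and 30.7 CPM in SNT-16. No arms overlapped, and the responses were 0.46, -0.46 and -0.52, that in SNT-8 being -0.33 without SNT-8 icaritin replicate 2. P2RY8 (Gene ID 286530), a receptor that restrains lymphocyte migration and growth, had 53.9, 54.3 and 56.9 CPM in SNK-10 after icaritin, against 41.1, 36.8 and 42.9 CPM after DMSO, and under 7 CPM in every SNT library. Its responses were 0.44, -0.42 and -0.44, with overlapping arms in SNT-8, where the response was -0.25 without icaritin replicate 2. ATP9A, an endosomal ATPase of the phospholipid flippase family, had the opposite distribution, at 3.04, 2.39 and 2.84 CPM in SNK-10 after icaritin and 1.21, 1.74 and 1.76 CPM after DMSO, against 10.4 to 37.1 CPM in the SNT lines. Its responses were 0.55, -0.36 and -0.27.

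SPTLC2 (Gene ID 9517), a subunit of serine palmitoyltransferase, which starts sphingolipid synthesis, had 63.7, 64.2 and 64.6 CPM in SNK-10 after icaritin, against 80.7, 82.3 and 78.1 CPM after DMSO. In SNT-8 it had 94.6, 87.2 and 93.5 CPM against 73.2, 71.8 and 71.9 CPM, and in SNT-16 93.9, 94.2 and 97.5 CPM against 71.3, 70.6 and 67.8 CPM. SNK-10 was the lowest of the lines after icaritin and the highest after DMSO, with no overlap of the arms and responses of -0.32, 0.34 and 0.44. PCYOX1, which breaks down prenylcysteines left from prenylated proteins, responded by -0.30, 0.46 and 0.35, and its arms were apart in each line. RETSAT, the retinol saturase, and PLCB3, a phospholipase C, lay near the threshold in SNK-10, at -0.21 and -0.22, and both missed it under TMM. The glycan enzymes also split, ST6GAL1, which adds terminal sialic acid, with 0.28, -0.33 and -0.25, against CHST2, which sulfates N-acetylglucosamine, with -0.31, 0.60 and 0.57.

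Among genes of adhesion, matrix and cytoskeleton, 3 were higher in SNK-10 and lower in both SNT lines (THBS4, DST and ADGRG5) and 6 were the reverse (NEDD9, ARHGEF6, SHROOM1, EML6, TENM3 and TTLL3). THBS4 (Gene ID 7060), thrombospondin-4, a glycoprotein of the extracellular matrix, had 175, 172 and 188 CPM in SNK-10 after icaritin, against 119, 122 and 122 CPM after DMSO. It had 4.69, 2.42 and 4.77 CPM against 6.17, 5.5 and 6.44 CPM in SNT-8, and 3.89, 4.46 and 3.65 CPM against 5.71, 6.25 and 7.26 CPM in SNT-16. No arms overlapped, and a gene far more abundant in SNK-10 was higher there still after icaritin, with responses of 0.56, -0.50 and -0.57, and the SNT-8 value was -0.30 without icaritin replicate 2. DST (Gene ID 667), dystonin, which ties cytoskeletal filaments together, went the same way, at 153, 157 and 151 CPM in SNK-10 after icaritin against 118, 118 and 118 CPM after DMSO, with responses of 0.38, -0.60 and -0.45. ADGRG5, an adhesion G protein-coupled receptor, responded by 0.22, -0.50 and -0.40.

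NEDD9 (Gene ID 4739), a scaffold of integrin signalling in lymphocytes, had 76.2, 77.2 and 76.2 CPM in SNK-10 after icaritin, against 103, 97.3 and 95.5 CPM after DMSO. SNT-8 libraries held 11.1, 12.2 and 13.4 CPM against 7.86, 8.0 and 6.83 CPM, and those of SNT-16 held 13.7, 15.8 and 14.1 CPM against 8.62, 8.37 and 8.77 CPM. Like FADS2, it was abundant in SNK-10 and scarce in the SNT lines, and the gap was narrower after icaritin, with responses of -0.36, 0.63 and 0.70. ARHGEF6, an exchange factor for Rac and Cdc42, had the same distribution, at 81, 82.8 and 83.8 CPM in SNK-10 after icaritin and 97.2, 99.8 and 91.6 CPM after DMSO, against 3.85 to 9.31 CPM in the SNT lines. Its responses were -0.22, 0.24 and 0.72, and the SNT-8 response was 0.12 without icaritin replicate 2. The actin-binding SHROOM1, the microtubule-binding EML6, the adhesion molecule TENM3 and the tubulin-modifying TTLL3 had SNK-10 responses between -0.44 and -0.21. Only TENM3 of these 4 had arms apart in every line.

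In stress, cell cycle and growth control, GADD45B was higher in SNK-10 and lower in both SNT lines, and 9 genes were the reverse (FOSL1, MYBL1, PLK3, NORAD, CDK19, GEM, ORC6, ATF5 and GSK3B). GADD45B (Gene ID 4616), a stress-induced activator of stress kinase cascades, had 24.7, 26.3 and 26 CPM in SNK-10 after icaritin, against 16.5, 15.9 and 17 CPM after DMSO. It had 18.9, 20.8 and 15.9 CPM against 21.6, 22.8 and 22.7 CPM in SNT-8, and 15, 15.9 and 18.7 CPM against 24.4, 22.6 and 22.2 CPM in SNT-16. SNK-10 was the highest line after icaritin and the lowest after DMSO, with no overlap of the arms and responses of 0.61, -0.26 and -0.46. MYBL1 (Gene ID 4603), also called A-MYB, a transcription factor of proliferating cells, had 42.5, 46 and 43.9 CPM in SNK-10 after icaritin, against 66.9, 69.2 and 64.8 CPM after DMSO. In SNT-8 it had 34, 30.1 and 32.2 CPM against 23.4, 24.7 and 26.3 CPM, and in SNT-16 38.2, 31.1 and 31.7 CPM against 21, 20.5 and 22.4 CPM. Its SNK-10 response of -0.59 was the lowest of the 61, beside 0.36 in SNT-8 and 0.64 in SNT-16.

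FOSL1 (Gene ID 8061), an AP-1 subunit, had 23.7, 19.9 and 21.4 CPM in SNK-10 after icaritin, against 31, 30.9 and 31.2 CPM after DMSO. It had 16.6, 24.1 and 13 CPM against 11.8, 11.7 and 11.7 CPM in SNT-8, and 14.8, 18 and 15 CPM against 10.3, 12 and 12.6 CPM in SNT-16. Replicate 2 of the SNT-8 icaritin arm was again the high one, and the SNT-8 response was 0.57 with it and 0.31 without it, beside -0.50 in SNK-10 and 0.42 in SNT-16. Of 32 other tested genes of the MAPK and AP-1 list, 8 rose and 10 fell in SNK-10, 10 rose and 12 fell in SNT-8, and 10 rose and 12 fell in SNT-16. Over all genes tested the shares were 24.4% and 24.0%, 24.0% and 25.0%, and 21.2% and 20.8% in the same order. None of the 32 passed in opposite directions, where 0.557% of the 9329 genes did so as higher in SNK-10 and 0.332% as lower, so nothing is read from that. NORAD (Gene ID 647979), a long noncoding RNA that binds PUMILIO proteins and is induced by DNA damage, had 179, 178 and 163 CPM in SNK-10 after icaritin, against 231, 237 and 230.2 CPM after DMSO. SNT-8 libraries held 326, 351 and 295 CPM against 260.4, 265 and 260.4 CPM, and those of SNT-16 held 417, 392 and 406 CPM against 335, 322 and 325 CPM. The arms were apart in each line, with responses of -0.42, 0.31 and 0.30.

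CDK19 (Gene ID 23097), a kinase of the Mediator complex, had 39.6, 43.4 and 40.0 CPM in SNK-10 after icaritin, against 48, 51.2 and 50.7 CPM after DMSO. Its values were 42.8, 38.9 and 40.2 CPM against 25, 27.3 and 25.6 CPM in SNT-8, and 40.1, 42.1 and 45.1 CPM against 23.1, 27.5 and 24.8 CPM in SNT-16. After icaritin the libraries of the 3 lines overlapped, after DMSO SNK-10 was the highest, and the responses were -0.28, 0.63 and 0.73. PLK3, a polo-like kinase and target of p53, responded by -0.43, 0.37 and 0.32. Of the 28 other tested p53 targets, 24 rose and 1 fell in SNK-10, 24 rose and none fell in SNT-8, and 25 rose and none fell in SNT-16, so PLK3 was lower in SNK-10 beside a list that mostly rose (edgeR's quasi-likelihood test, adjusted p below 0.05). ATF5, a factor made more during the integrated stress response, responded by -0.23, 0.45 and 0.47, beside 34 other tested genes of that response of which 31 rose in SNK-10, 30 in SNT-8 and 31 in SNT-16 and none fell. Under TMM the SNK-10 response of ATF5 missed the threshold. ORC6, a subunit of the origin recognition complex, responded by -0.25, 0.39 and 0.40, and 60 other genes on the list of G1/S control and replication were tested. In SNK-10 26 of these rose and 19 fell, in SNT-8 24 rose and 11 fell, and in SNT-16 36 rose and 8 fell. Over all genes tested, the shares beside these 3 lists were 24.4% risen and 24.0% fallen in SNK-10, 24.0% and 25.0% in SNT-8, and 21.2% and 20.8% in SNT-16. CCND2, cyclin D2, was the only gene among these 60 that passed the test in opposite directions, at 0.20 ± 0.04, -0.34 ± 0.04 and -0.27 ± 0.04. In that direction 0.557% of the 9329 genes at 10 CPM passed. The small GTPase GEM and the kinase GSK3B responded by -0.40 and -0.24 in SNK-10.

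The other 20 genes were 3 higher in SNK-10 and 17 lower. CCDC141 (Gene ID 285025), a coiled-coil protein known in mouse from the migration of neurons, had the largest response of the 61, at 44.7, 48.2 and 44.6 CPM in SNK-10 after icaritin, against 17.2, 16.6 and 17.2 CPM after DMSO. In the SNT lines it reached at most 1.5 CPM in any library, so its responses of -0.42 and -0.32 there rest on few reads, beside 1.38 in SNK-10. Without SNT-8 icaritin replicate 2 the SNT-8 responses of CCDC141 and TEX19 were -0.28 and -0.20. TEX19, a germ cell protein, was scarce in SNK-10 instead, at 1.89, 2.72 and 1.84 CPM after icaritin and 1.85, 1.55 and 1.25 CPM after DMSO, which overlap. It was at 20.3 to 34.8 CPM in SNT-8 and 15.8 to 24.3 CPM in SNT-16, with responses of 0.31, -0.34 and -0.32. TMEM131L, reported to restrain the growth of thymocytes, responded by 0.26, -0.46 and -0.23.

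The 17 lower genes without a role above had responses of -0.41 to -0.20 in SNK-10, 0.21 to 0.83 in SNT-8 and 0.21 to 0.50 in SNT-16. The noncoding LINC00174 led them with -0.41, 0.69 and 0.50, followed by the myotubularin-family pseudophosphatase SBF2 with -0.38, 0.58 and 0.44. The pseudogene ZNF37BP responded by -0.33, 0.51 and 0.45. PKD2, the polycystin cation channel, responded by -0.33, 0.46 and 0.31, and SLC39A14, a carrier of zinc and iron, by -0.24, 0.37 and 0.28. PFKM, the muscle form of phosphofructokinase, was just past the threshold in SNK-10 at -0.20, beside 0.64 and 0.42 in the SNT lines. Of 32 other tested genes of glycolysis and hypoxia, 15 rose and 5 fell in SNK-10, 22 rose and 1 fell in SNT-8, and 20 rose and 2 fell in SNT-16. Over all genes tested the shares were 24.4% and 24.0%, 24.0% and 25.0%, and 21.2% and 20.8% in the same order. The remaining genes of the 17 are ANKRD10, TBC1D3L, TIMMDC1, PCNA-AS1, C21orf58, AKAP17A, GBA1LP, MSTO2P, LDB1, PABPC4-AS1 and PCED1A. TBC1D3L belongs to a family of near-identical copies, and ZNF37BP, GBA1LP and MSTO2P are transcribed pseudogenes, so their counts depend on how reads of similar sequence were shared.

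Overlap with other genes touches 19 of the 61. PCNA-AS1 was at -0.23, 0.31 and 0.33 and PCNA, on the opposite strand, at -0.12, 0.31 and 0.47 in SNK-10, SNT-8 and SNT-16. PABPC4-AS1 and PABPC4 were at -0.25, 0.21 and 0.25 and at -0.29, 0.25 and 0.16. For these antisense genes the counts of the partner cannot be told apart without strand. CDK19, ATF5, TIMMDC1 and LDB1 overlap AMD1, NUP62, CD80 and PPRC1, whose responses had 1 sign in all 3 lines: -1.13, -1.12 and -0.93 for AMD1, -0.36, -0.37 and -0.39 for NUP62, 0.80, 1.42 and 1.00 for CD80, and -1.02, -0.77 and -0.88 for PPRC1. The genes lie on 20 chromosomes in the RefSeq annotation, and only P2RY8 and AKAP17A stood next to each other among tested genes.

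**Figure D3:**
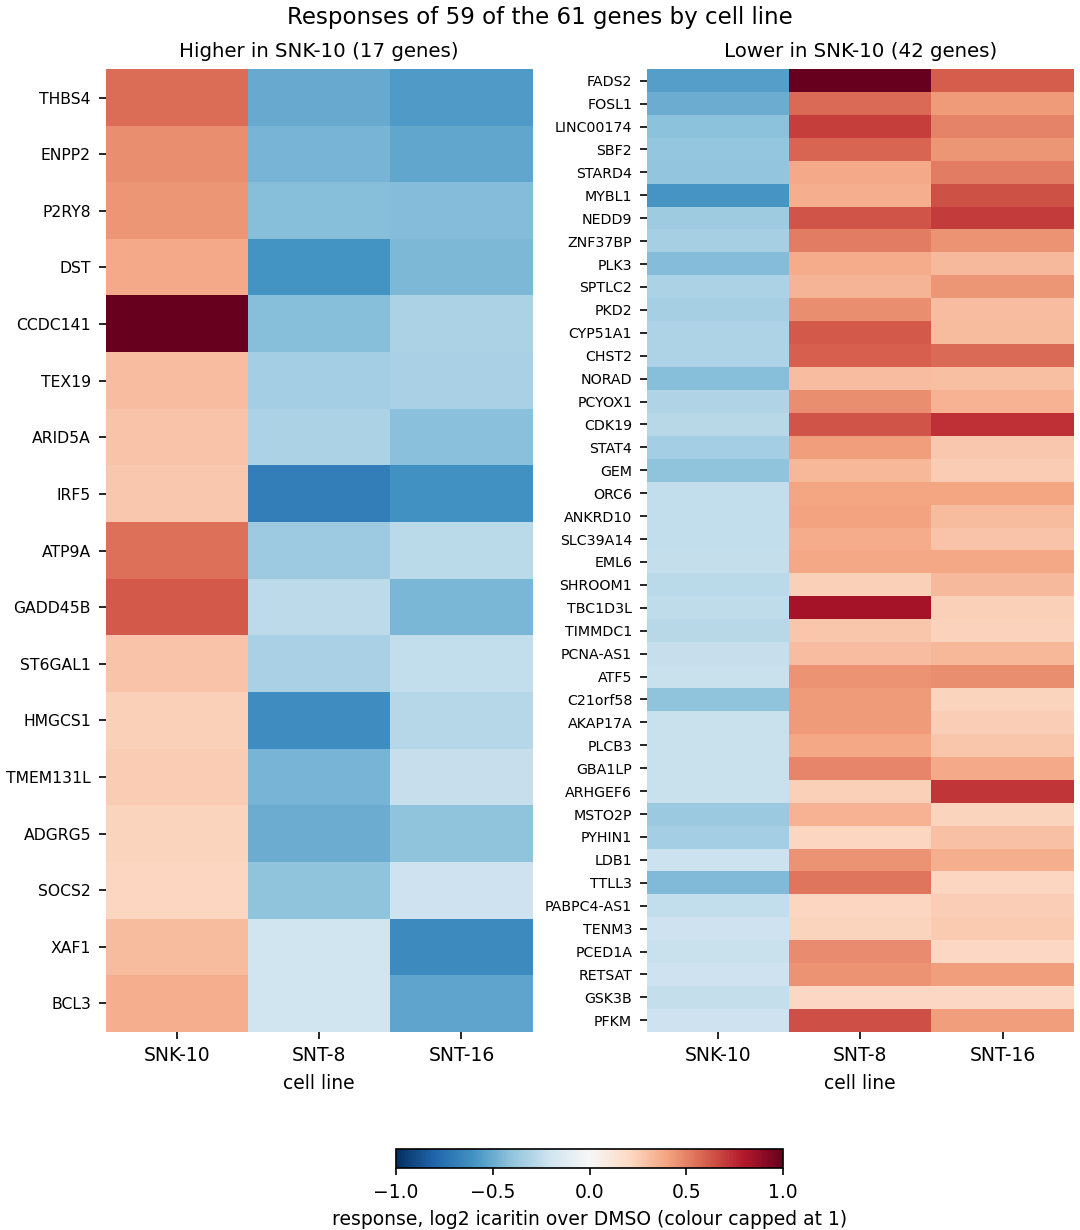
Response (colour, log2 of icaritin over DMSO, capped at 1 in either direction) of 17 genes higher in SNK-10 (left) and of 42 genes lower in SNK-10 (right), 1 band for each gene and 1 column for each line. Within a panel genes run from the largest to the smallest response in their weakest line.

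In the class higher in SNK-10 the median response was 0.31 in SNK-10, -0.42 in SNT-8 and -0.43 in SNT-16, and in the class lower in SNK-10 it was -0.28, 0.41 and 0.33. A response of at least 0.3 in every line was reached by 6 and 15 genes. A response of 1 in any line was passed only by CCDC141 in SNK-10 and FADS2 in SNT-8. In absolute size, SNK-10 had the smallest of the 3 responses in 25 of the 43 lower genes and the largest in 8. Among the 18 higher genes it had the smallest in 7 and the largest in 4. The rule used these responses, so nothing is read from the counts. All 61 genes passed the filter on low counts of the fit. In the class higher in SNK-10, 17 of 18 passed the adjusted threshold of edgeR's quasi-likelihood test in SNK-10, 18 in SNT-8 and 17 in SNT-16, where 31.3%, 34.4% and 28.3% of the 9329 genes passed in those directions. In the class lower in SNK-10 the counts were 34, 38 and 33 of 43, where 31.0%, 28.6% and 27.6% passed. The icaritin and DMSO libraries did not overlap in any line for 13 of the 18 higher genes and 32 of the 43 lower genes, where 0.472% and 0.9% of the 9329 genes did so in those directions. By line, the higher genes had arms apart in 17, 15 and 17 cases, with 31.0%, 31.3% and 31.0% of all 9329 genes apart in those directions, and the lower genes in 37, 39 and 36 cases, with 37.5%, 34.1% and 35.6%. The same contrasts chose the genes, so nothing is read from these counts. Over all 9329 genes, 52 (0.557%) passed the test in all 3 lines as higher in SNK-10 and lower in both SNT lines, and 31 (0.332%) the reverse.

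The edge of the rule was narrow. BCL3, XAF1 and PFKM were just inside, with weakest responses of 0.2008, 0.2018 and 0.2039 in size. HAVCR2 (TIM-3, an inhibitory receptor of T and NK cells) and CD274 (PD-L1, the ligand of the inhibitory receptor PD-1) were just outside, at 0.1997 and 0.1978. HAVCR2 responded by 0.51 in SNK-10, -0.20 in SNT-8 and -0.29 in SNT-16, and CD274 by 0.38, -0.20 and -0.37.

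The rule also asked for a mean of 10 CPM over all libraries, so a gene that is scarce in one line passed only where it is abundant in another, and its difference in level between lines is given as a description. Of the 61 genes, 22 (36.1%) had at least 1 group with a mean below 10 CPM, against 10.5% of the 9329 genes. By edgeR's quasi-likelihood test (adjusted p below 0.05) on levels averaged over both arms, 32 of the 61 genes were called higher in SNK-10 than in the mean of the SNT lines and 24 lower, and 5 did not pass, where 39.3% and 37.7% of the 9329 genes were called. Calls of at least 2-fold numbered 17 higher and 6 lower, where 4.66% and 4.35% of the 9329 were called, and 18 of these 23 genes (78.3%) had a group below 10 CPM, so nothing is read from that count. In the 39 genes with at least 10 CPM in every group, 18 were higher in SNK-10 (46.2%) and 16 lower (41.0%), where 39.2% and 36.5% of the 8348 genes at 10 CPM in every group were called. At 2-fold, 4 of the 39 (10.3%) were higher and 1 (2.56%) lower, where 2.17% and 2.42% of the 8348 were called. These small counts were not tested against the other genes.

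Among the genes with a group below 10 CPM, CCDC141 differed by 4.99 ± 0.10 (log2, SNK-10 minus the mean of the SNT lines, SE). THBS4 differed by 4.95 ± 0.05, CYP51A1 by 4.64 ± 0.06, ARHGEF6 by 4.12 ± 0.06 and P2RY8 by 3.32 ± 0.07. All of these were more abundant in SNK-10 and below 10 CPM in every group of both SNT lines. Both classes stand among them, THBS4, CCDC141 and P2RY8 from the one and CYP51A1 and ARHGEF6 from the other. TEX19 at -3.62 ± 0.12, ATP9A at -3.28 ± 0.10, EML6 at -1.93 ± 0.11 and LINC00174 at -1.22 ± 0.09 were scarce in SNK-10 instead, and FADS2 at 3.28 ± 0.05 and STAT4 at 1.96 ± 0.06 were scarce in at least one SNT group. No p is given for these genes. Of the genes at 10 CPM in every group, IRF5 at 1.79 ± 0.05 (log2, SE) and STARD4 at 1.10 ± 0.04 were higher in SNK-10 (edgeR's quasi-likelihood test, adjusted p = 8.65e-20 and 4.12e-25). ANKRD10 at -1.24 ± 0.03, ARID5A at -0.88 ± 0.03, HMGCS1 at -0.77 ± 0.06 and BCL3 at -0.34 ± 0.04 were lower (edgeR's quasi-likelihood test, adjusted p = 3.01e-29, 2.38e-26, 2.5e-08 and 2.13e-09). The 5 of the 61 genes that did not pass were GADD45B, ORC6, TIMMDC1, C21orf58 and MSTO2P, with differences of 0.11, -0.07, 0.08, -0.10 and 0.03. A missed threshold does not show that their levels are equal. In all 5 the order of SNK-10 and the mean of the SNT lines was turned round between the arms. For GADD45B the log2 gap was 0.53 after icaritin and -0.44 after DMSO. An average near 0 over both arms thus says nothing of the gap within an arm.

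**Figure D4:**
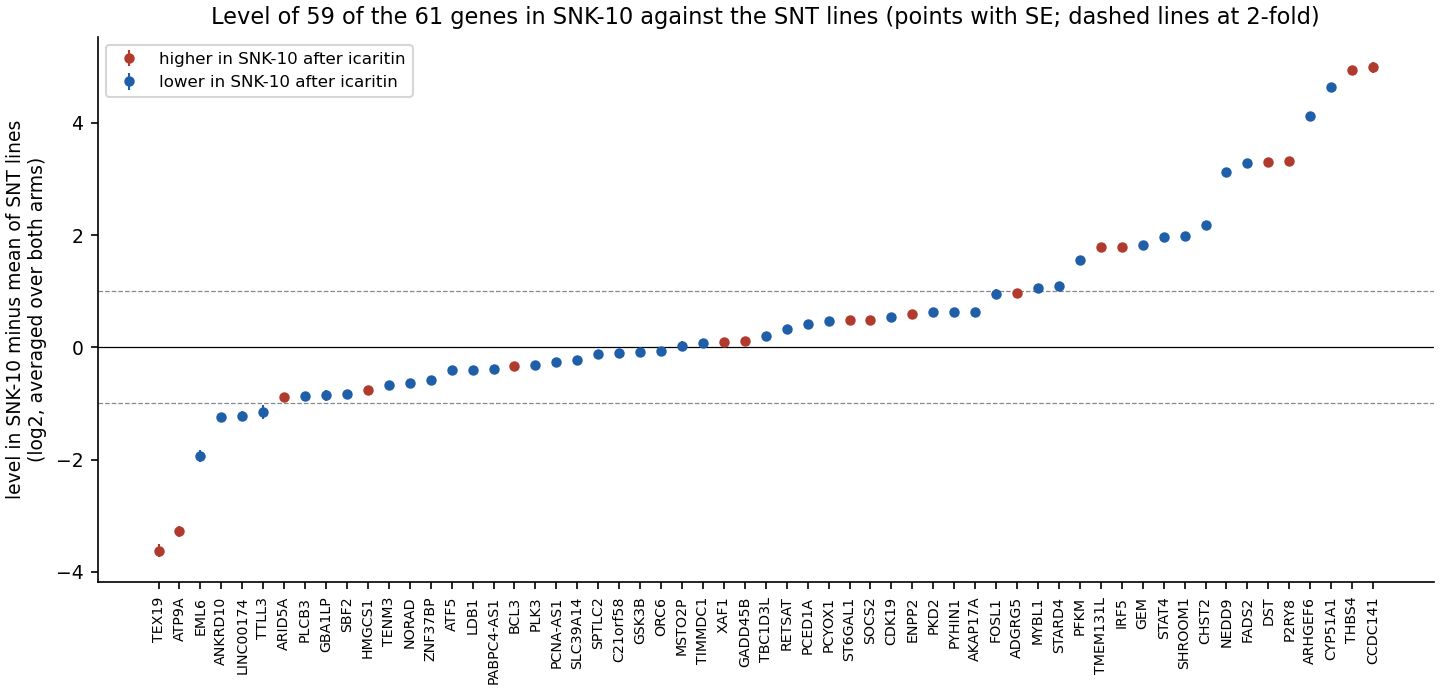
Level in SNK-10 minus the mean of both SNT lines, averaged over icaritin and DMSO (vertical axis, log2, points with SE), for 59 of the genes in order. Genes of both classes (red, higher in SNK-10 after icaritin; blue, lower) are spread along the axis, from -3.62 for TEX19 to 4.99 for CCDC141, and 23 lie outside the dashed lines at 2-fold.

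Between SNT-8 and SNT-16, 7 of the 61 genes were called higher in SNT-8 and 16 lower, and 38 did not pass the same test, where 15.2% and 16.2% of the 9329 genes were called. In the 39 genes at 10 CPM in every group, 3 were higher (7.69%) and 10 lower (25.6%), where 15.7% and 15.9% of the 8348 were called. Differences of at least 2-fold were seen in ENPP2 and ATP9A, at -1.36 ± 0.08 and -1.19 ± 0.07 (log2 of SNT-8 over SNT-16, SE). Of the 9329 genes, 0.172% were higher by that much and 0.311% lower. ENPP2 was below 10 CPM in SNT-8 after icaritin, and ATP9A was below it only in SNK-10, which this contrast leaves out. None of the 39 differed so far, where 0.0% of the 8348 were higher and 0.0599% lower. XAF1 at -0.58 ± 0.04 was lower in SNT-8 and HMGCS1 at 0.59 ± 0.07 was higher (log2, SE, adjusted p = 1.72e-15 and 1.26e-05, edgeR's quasi-likelihood test).

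Set beside the DMSO levels, the gap between SNK-10 and the mean of the SNT lines was narrower after icaritin in 22 of the 61 genes and wider in 24, and the order of the lines was turned round in 15. That is 36.1%, 39.3% and 24.6%, against 38.8%, 44.5% and 16.7% of the 9329 genes. As the responses enter this measure, these shares are a description. The gap narrowed for FADS2, where the log2 difference between SNK-10 and the SNT lines was 2.35 after icaritin and 3.80 after DMSO, for CYP51A1 (3.94 and 4.70) and for NEDD9 (2.43 and 3.45). It widened for THBS4 (5.17 and 4.08), IRF5 (2.17 and 1.25) and NORAD (-1.07 and -0.34). The order turned for XAF1 (0.39 and -0.40), GADD45B (0.53 and -0.44) and ENPP2 (0.83 and -0.14). Per transcript length, the mean level over all libraries ran from 1.27 FPKM (CCDC141) to 340.5 FPKM (PCNA-AS1), with ARID5A at 122 FPKM next below PCNA-AS1.

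The sums of markers of other cell types are set beside these genes. Summed over 7 B and plasma cell markers, libraries held 36.1 to 43.0 CPM after icaritin and 73.2 to 80.1 CPM after DMSO in SNK-10, 76.5 to 110.9 against 171.6 to 177.7 CPM in SNT-8, and 100.9 to 105.0 against 175.3 to 180.8 CPM in SNT-16, lower after icaritin in every line. Between 0 and 4 of the 7 were at 0 in all libraries of a group. The sums of 8 monocyte and macrophage markers lay between 32.8 and 43.2 CPM in all groups, and those of 3 erythroid markers between 0 and 0.31 CPM. The sum of 8 fibroblast and endothelial markers was 13.7 to 16.1 CPM after icaritin and 10.3 to 14.7 CPM after DMSO in SNK-10, which overlap. It was 13.6 to 15.2 against 4.75 to 5.98 CPM in SNT-8 and 10.3 to 12.2 against 4.47 to 6.54 CPM in SNT-16, higher after icaritin with no overlap, and 2 or 3 of the 8 were at 0 in all libraries of a group. Sums of 4 epithelial markers were 8.37 to 9.22 CPM after icaritin and 6.48 to 7.02 CPM after DMSO in SNK-10, 6.92 to 7.31 against 4.78 to 5.94 CPM in SNT-8, and 4.90 to 8.03 against 4.85 to 7.67 CPM in SNT-16, where they overlap, with at most 1 of the 4 at 0 in a group. The part of such cells or transcripts in the responses of the 61 genes was not tested, and in bulk samples fewer cells of a type and less RNA per cell cannot be told apart.

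**Figure D5:**
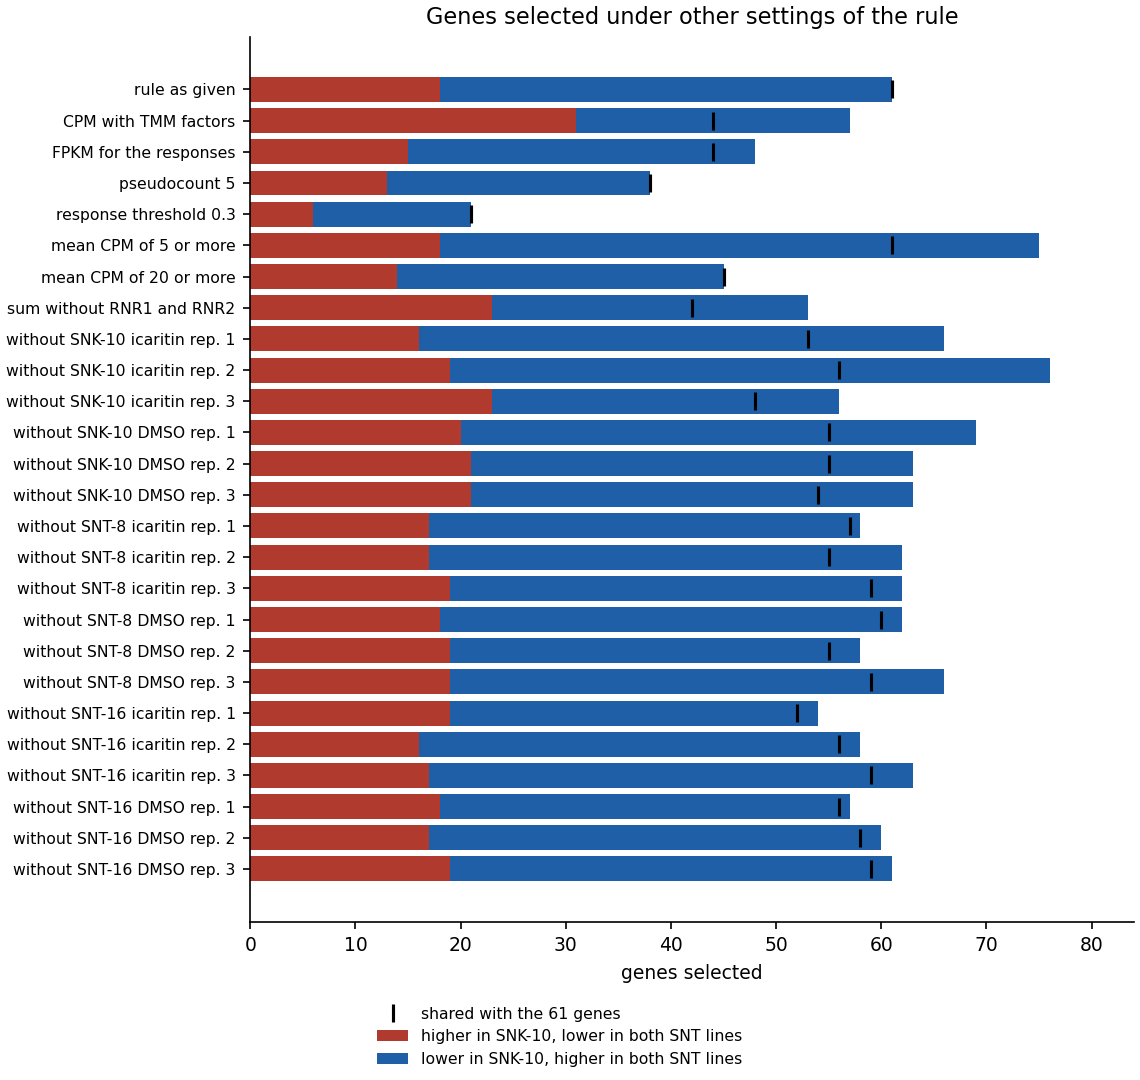
Number of genes the rule selects (horizontal axis) under other scalings, thresholds and with 1 library left out, split into those higher in SNK-10 and lower in both SNT lines (red) and the reverse (blue), with the number shared with the 61 genes as a black tick. TMM scaling gives 31 and 26 genes in place of 18 and 43, and leaving out a library gives 54 to 76 genes in all.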

How the data were processed

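RNA-seq of 18 libraries (3 lines, icaritin or DMSO for 12 h, 3 libraries each) was used. Total RNA was extracted with Trizol and made into libraries with an MGIEasy kit, per the labels' protocols. The submitters' processing notes name Bowtie2 and HISAT, with no versions. No source used here gives the genome build, the counting tool, the use of strand or the dose of icaritin. The authors deposited, for each library, an expected count and an FPKM value (fragments scaled by transcript length and library size) for each gene, of which 60.3% to 61.6% of the expected counts were whole within 0.005. Genes missing from a library were set to 0. Gene names came from a RefSeq table for 21559 IDs by gene ID and 24 by transcript, and 79 had none.

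Counts were rounded and tested with edgeR 4.0.16 (R 4.3.3), with TMM scaling, its filter on low counts (minimum count 10, minimum total 15; 14396 genes left) and robust quasi-likelihood fits over 6 groups with 12 residual degrees of freedom. P-values were adjusted by Benjamini-Hochberg over all genes tested, and the threshold was 0.05. Line contrasts were averaged over both arms. DESeq2 1.42.0 was an alternative. The fits were also run on simulated counts with the same dispersion for all genes, and the outcome is not reported here. The depth of 9526431 to 10100453 counts limits genes below 10 CPM most. Python 3.11.15, pandas 2.3.3, numpy 2.4.6 and matplotlib 3.10.9 were used for tables and plots.

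The 61 genes, the gene lists and the tests were chosen with earlier results of these data known. The rule for genes named with values took, in each class, the 12 with the largest response in their weakest line, those on a pathway list, 3 on each side of the threshold of the rule, and the 5 highest and 5 lowest differences in level, with all others by name and range. The text goes past it: other genes, such as CDK19, PCYOX1, SLC39A14 and TMEM131L, were given values after these were seen, the closing section gives all with libraries apart in every line, and 2 of the 61 and 1 gene just outside the threshold are not reported by name here. IRF1, GBP1, GBP4, GBP5, IFI44L, BST2, FASN, INSIG1 and CCND2 were chosen from the lists after their values were seen. Replicate numbers did not pair the libraries.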

Additional observations from a re-analysis of the deposited data

Results flagged for a closer look

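Of the 61 genes, 45 had every icaritin library on one side of all DMSO libraries in SNK-10 and on the other side in both SNT lines, 13 higher and 32 lower in SNK-10. Of the 9329 genes, 0.472% and 0.9% did so in those directions. They are listed because the direction differed between lines, which is what the rule asked for, so nothing is read from their number. The value given is the response in SNK-10 minus the mean response of SNT-8 and SNT-16, in log2 units. Values of 43 of them are given. The difference was not tested, since the responses chose the genes.

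Among the genes higher in SNK-10 the difference was 1.09 (THBS4), 0.97 (GADD45B), 0.96 (ENPP2), 0.91 (IRF5), 0.91 (DST), 0.86 (ATP9A), 0.74 (XAF1), 0.69 (HMGCS1), 0.67 (ADGRG5), 0.65 (ARID5A), 0.60 (TMEM131L) and 0.52 (SOCS2).

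Among the genes lower in SNK-10 it was -1.46 (FADS2), -1.09 (MYBL1), -1.02 (NEDD9), -1.0 (LINC00174), -0.99 (FOSL1), -0.96 (CDK19), -0.89 (CHST2), -0.89 (SBF2), -0.84 (STARD4), -0.81 (ZNF37BP), -0.78 (PLK3), -0.78 (CYP51A1), -0.73 (NORAD), -0.73 (PFKM), -0.72 (PKD2) and -0.71 (SPTLC2). In the others it was -0.71 (PCYOX1), -0.70 (GEM), -0.70 (ARHGEF6), -0.69 (ATF5), -0.64 (ORC6), -0.64 (RETSAT), -0.62 (LDB1), -0.60 (ANKRD10), -0.57 (SLC39A14), -0.56 (AKAP17A), -0.55 (PCNA-AS1), -0.55 (PLCB3), -0.53 (TIMMDC1), -0.45 (TENM3) and -0.44 (GSK3B).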

How the results depend on the processing

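With a pseudocount of 5 the rule kept 38 genes, with a response threshold of 0.1 it kept 261 and with 0.3 it kept 21. Deposited FPKM in place of CPM gave 48 genes (15 higher and 33 lower in SNK-10), 44 of them among the 61. A mean of at least 5 CPM gave 75 genes and of at least 20 CPM gave 45. Leaving out each of the 18 libraries in turn gave 54 to 76 genes, of which 48 to 60 were among the 61, and 29 of the 61 stayed in all 18 selections. Under the other scalings, FPKM, the pseudocount of 5 and the left-out libraries, 3938 responses moved by less than the spread between replicates, 87 moved by more and 1 changed sign. A left-out library cannot change the responses of the other lines, so most of the 3938 were fixed in advance and say nothing of stability. The response that changed sign was that of GBA1LP in SNK-10. It ranged from -0.39 without SNK-10 DMSO replicate 1 to 0.0255 without SNK-10 DMSO replicate 3, and the cause was not tested.

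For the level of SNK-10 against the SNT lines, leaving out single libraries gave 31 to 34 of the 61 genes higher and 23 to 25 lower. GSK3B (-0.09) was the gene that lost its call under most alternatives. With the replicate number as a block, 32 genes were higher and 23 lower, and 6788, 6847 and 5819 of all genes passed the test of icaritin in SNK-10, SNT-8 and SNT-16, against 6970, 7062 and 6051 without it. Libraries with the same number did not deviate together (correlations of -0.058 to 0.055), so the block says nothing of pairing by design. Depth limits the genes with a group under 10 CPM.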
